A study of Sus scrofa with 24 samples.

Results

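The genes of MHC class I antigen presentation were followed in RNA sequencing counts from the hippocampus of young piglets. They were chosen by name and not by a threshold on their values, but with earlier results of these data known. The symbols were the class I heavy chains SLA-1, SLA-2 and SLA-3, the light chain B2M, the peptide transporter subunits TAP1 and TAP2, the loading factor TAPBP, the immunoproteasome subunits PSMB8 and PSMB9, and the transactivator NLRC5. Of these 10 symbols, 9 matched an identifier among the 38882 genes of the count tables, and 6 had at least 1 read. SLA-2 matched no listed gene and was not analysed here, and TAP1, PSMB8 and PSMB9 were listed at 0 reads in all 24 libraries. The 6 genes with reads are called the measured class I genes.

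Each of the 24 libraries came from 1 piglet of 14 days, born to a PIC Camborough dam and a PIC 359 sire. Piglets were appropriate (AGA) or small (SGA) for gestational age and were raised on a control formula (CON) or on a formula with hydrolyzed fat (HF), which gave 6 piglets in each combination of size and diet (AGA CON, SGA CON, AGA HF, SGA HF). Within a diet, each replicate number stands for a pair of littermates of one sex, 1 SGA and 1 AGA, so the data held 12 litters, 6 on each diet. Replicates 1 to 3 belonged to the first cohort of litters brought in and replicates 4 to 6 to the second. Diet and cohort thus differed only between litters, whereas size differed within them. Small size was naturally occurring low birth weight. By the study's methods, all piglets were intact, had taken colostrum and had received iron and an antibiotic on the farm. In whole tissue, fewer cells of a type and less RNA per cell cannot be told apart.

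Class I molecules carry short peptides from inside the cell to its surface, where CD8 T cells and NK cells read them. The proteasome cuts the peptides, with PSMB8 and PSMB9 in place of standard subunits when interferon has been sensed. TAP1 and TAP2 then pump them into the endoplasmic reticulum, and tapasin (TAPBP) holds an empty heavy chain with B2M at the transporter until a peptide fits. NLRC5 switches these genes on together, and interferon raises most of them through factors of the IRF family. In the healthy brain, class I levels are low in most neurons and glia and higher in blood vessel cells and microglia, and neuronal class I has been linked to synapse pruning in development.

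The libraries held 6017336 to 9284355 reads assigned to genes, so the floor of 3 reads stood at 0.323 to 0.499 CPM, the read count scaled to library size (gene levels below also carry TMM normalization). Hippocampal neuron markers, 11 of 14 listed names measured, summed to 6388 to 10669 CPM per library, so markers of the labelled tissue were present throughout. The CON replicate 2 litter stood apart from the rest in several immune gene lists, described below, and the diet and cohort differences over all 24 libraries are given with and without it. RNA quality per library was not analysed here.

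Per length, SLA-1 stood highest. Its mean RPKM, the CPM divided by exon length in kilobases, was 120 ± 132 (SD, n = 24). SLA-3 followed at 54.8 ± 50.0 RPKM, TAPBP at 40.2 ± 8.94, B2M at 3.63 ± 2.33, TAP2 at 0.970 ± 0.497 and NLRC5 at 0.889 ± 0.435. Within libraries, SLA-1 lay above SLA-3 in 23 of 24, TAPBP above B2M in 24 of 24 and B2M above TAP2 in 23 of 24. The neighbours SLA-3 and TAPBP could not be ordered, with SLA-3 higher in 12 of 24 libraries, nor could TAP2 and NLRC5, with TAP2 higher in 15 of 24. The light chain therefore counted far fewer reads per base than the heavy chains it binds.

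SLA-1 (identifier 100037293; Sscrofa10.2 chromosome 7, 24655869 to 24751686, minus strand, 8 exons) encodes a classical heavy chain that presents peptides to CD8 T cells. Its counts ran from 430 to 6557 per library. In AGA CON piglets the lowest, median and highest level was 64.9, 116 and 729 CPM, and in AGA HF piglets 90.8, 143 and 457 CPM. In SGA CON piglets it was 69.0, 155 and 1075 CPM, and in SGA HF piglets 58.6, 123 and 243 CPM. The 4 groups overlapped from 90.8 to 243 CPM, the CON groups reached furthest above that, and the highest library was replicate 2 in each group.

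SLA-3 (identifier 100037288; chromosome 7, 24641613 to 24645323, minus strand, 9 exons), a further classical heavy chain, had 247 to 2547 reads per library. The lowest, median and highest level was 28.6, 88.3 and 279 CPM in AGA CON and 38.5, 58.9 and 144 CPM in AGA HF piglets. It was 41.2, 101 and 418 CPM in SGA CON and 41.9, 49.5 and 105 CPM in SGA HF piglets. The medians of both CON groups stood above those of both HF groups, but the ranges overlapped. An unnamed neighbour, LOC100513601, with 27768 reads over the 24 libraries, has 5 exons of the same length as exons of SLA-1 and of SLA-3 and overlaps 89 of the 1794 exon bases of SLA-1 (4.96%). By the counting tool's default, reads that align to several places were not counted, so the split of reads among these heavy chain genes is uncertain.

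B2M (identifier 397033; chromosome 1, 141437043 to 141449779, minus strand, 5 exons) encodes the light chain that every class I heavy chain needs to fold. It counted only 3 to 32 reads per library, 327 in all. Its lowest, median and highest level was 0.579, 1.61 and 4.81 CPM in AGA CON, 0.494, 1.71 and 2.56 CPM in AGA HF, 0.605, 2.11 and 5.25 CPM in SGA CON and 0.351, 1.60 and 2.36 CPM in SGA HF piglets. The name table holds a second B2M identifier, 110255236, which matched no listed gene, and an unnamed gene nearby (identifier 106504143, 71 reads) has 2 exons of the same length as exons of B2M. The low level therefore belongs to this one gene model, and whether other B2M reads went uncounted was not tested.

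TAP2 (identifier 733650; chromosome 7, 29412165 to 29423473, minus strand, 12 exons) had 5 to 36 reads per library. Its lowest, median and highest level was 1.62, 2.21 and 5.11 CPM in AGA CON, 0.823, 1.79 and 3.04 CPM in AGA HF, 1.66, 3.15 and 5.90 CPM in SGA CON and 0.949, 1.74 and 4.10 CPM in SGA HF piglets. The transporter works only as a pair, but its partner TAP1 (identifier 733649; chromosome 7, 29274670 to 29283290, minus strand) was listed at 0 reads in every library. So were PSMB8 (identifier 396975; 29425070 to 29428073, minus strand) and PSMB9 (identifier 654294; 29438756 to 29444131, plus strand). In the stretch of chromosome 7 from 29274670 to 29444131, bounded by TAP1 and PSMB9, 7 of 9 listed genes had no read in any library, beside 29.5% of all listed genes. The 7 include TAP1, PSMB8 and PSMB9 themselves and the near copies of TAP1 and PSMB9 given next. The stretch was set by these members, so its share describes it and tests nothing. Each of the 4 members there had a near copy by exon length: 9 of 11 exons of TAP1 (copy at 0 reads), 10 of 12 of TAP2 (copy at 142 reads), 4 exons of PSMB8 (copy at 0) and 5 of PSMB9 (copy at 0, with the same span of 5376 bases). A level of 0 for these 3 genes is thus a level in this build and count, and whether reads of them aligned to both copies was not tested.

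TAPBP (identifier 100155428; chromosome 7, 34167262 to 34176655, minus strand, 8 exons) encodes tapasin and was well counted, with 584 to 1248 reads per library. Its lowest, median and highest level was 103, 107 and 143 CPM in AGA CON, 91.5, 99.9 and 130 CPM in AGA HF, 101, 125 and 205 CPM in SGA CON and 96.1, 112 and 120 CPM in SGA HF piglets. Relative to its mean it varied least of the 6 genes. The highest library was SGA CON 6, a piglet of the second cohort.

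NLRC5 (identifier 100135667; 38 exons on 4 unplaced sequences), the activator of class I promoters, had 7 to 61 reads per library. Its lowest, median and highest level was 2.67, 4.58 and 8.27 CPM in AGA CON, 1.65, 3.09 and 4.13 CPM in AGA HF, 1.06, 4.11 and 10.0 CPM in SGA CON and 2.22, 4.30 and 4.64 CPM in SGA HF piglets. No HF library exceeded 4.64 CPM, and both CON groups reached above that level.

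**Figure D1:**
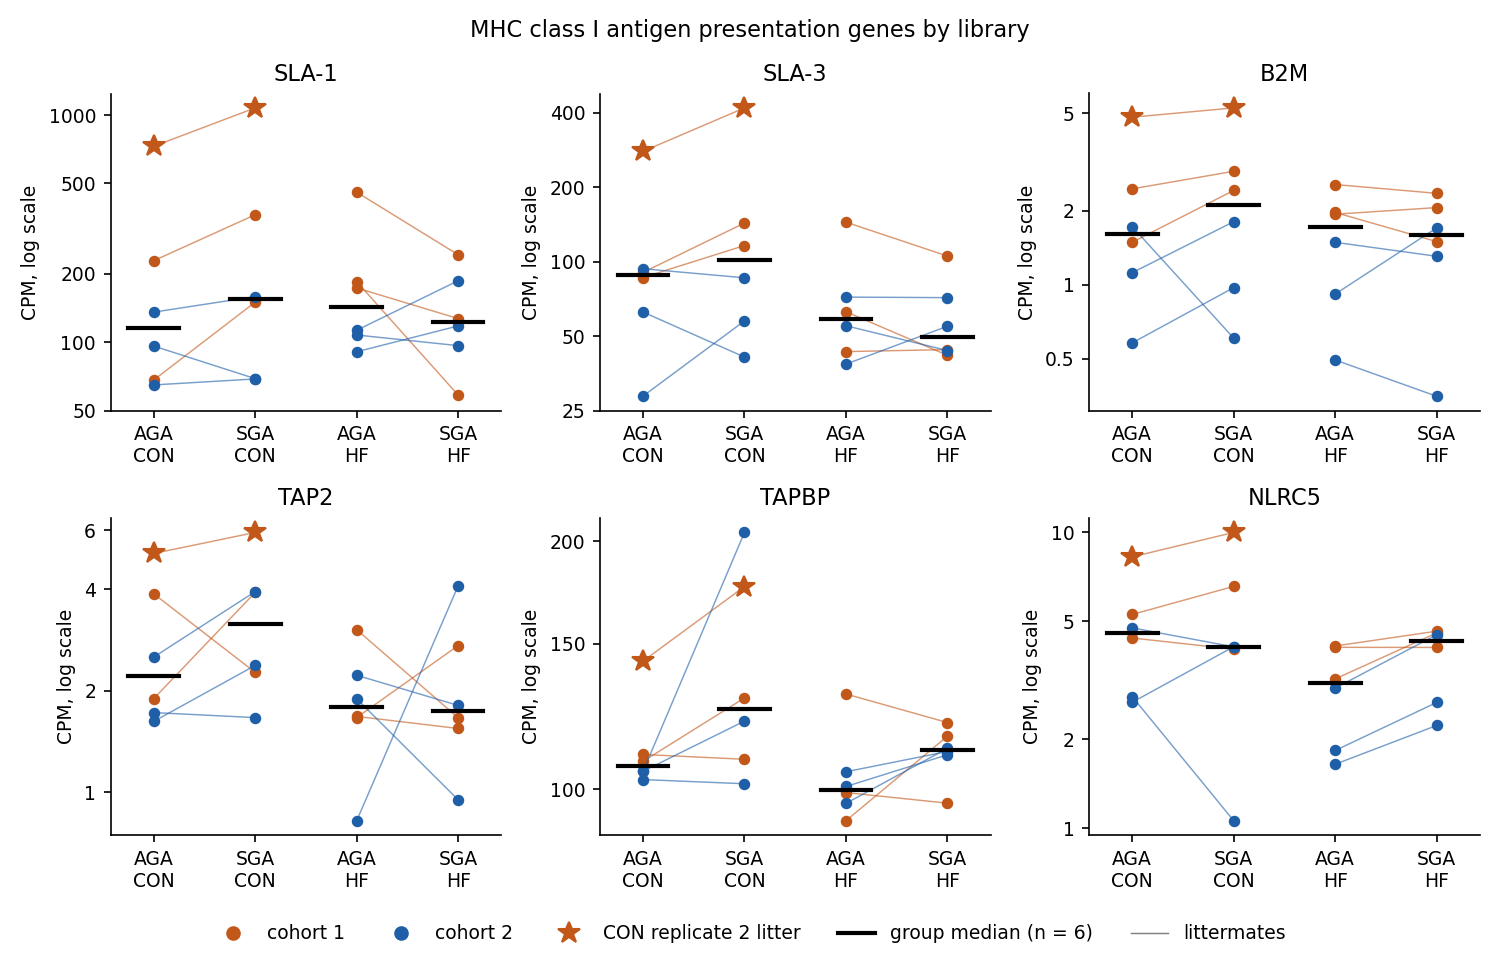
Level of the 6 measured class I genes in each library (CPM on log axes) by group, with a line joining littermates, the cohorts in 2 colors, a bar at each group's median (n = 6) and stars for the CON replicate 2 litter. The stars lie above all other 22 libraries for SLA-1, SLA-3, B2M, TAP2 and NLRC5 but not for TAPBP, where SGA CON 6 reached 205 CPM.

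The first question was whether birth size or formula changed these genes. By edgeR's quasi-likelihood test, fitted over 16326 genes with sex and 5 surrogate variables and called at an FDR under 0.4, as the study set it, 0 of the 6 measured class I genes changed with size, diet or their interaction. The share of all tested genes called was 0.478% for size, 0.159% for diet and 0.049% for the interaction. None was called for size among CON piglets (0.129% of all genes), for size among HF piglets (0.288%), for diet among AGA piglets (0.0674%) or for diet among SGA piglets (0.0919%). At an unadjusted p under 0.05 there were 2 of 6 for diet (SLA-3 and TAPBP) and 1 of 6 for size (TAPBP). That threshold was met by 7.10% of all genes for diet and 10.6% for size. There were also 1 for size among HF piglets (TAPBP; 8.02% of all genes), 1 for diet among AGA piglets (TAPBP; 6.09%), 1 for diet among SGA piglets (SLA-3; 5.16%) and 0 for the interaction (4.01%) and for size among CON piglets (6.59%). DESeq2 and limma voom called 0 of 6 in all 7 contrasts as well.

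Over all 24 libraries, the diet differences (HF against CON, log2 scale) were negative for all 6 genes, and without the CON replicate 2 litter for 5 of them. The largest was that of SLA-3, at -0.57 ± 0.19 (SE; unadjusted p = 0.00588 and FDR = 0.555 by edgeR across all genes). TAPBP differed by -0.14 ± 0.05 (edgeR FDR = 0.581), NLRC5 by -0.34 ± 0.19 (FDR = 0.784) and TAP2 by -0.37 ± 0.26 (FDR = 0.846). For B2M the difference was -0.18 ± 0.27 (edgeR FDR = 0.942) and for SLA-1 it was -0.06 ± 0.30 (FDR = 0.988). The median of the 6 was -0.26, beside 0.00 over all genes tested. Without that litter SLA-1 turned to 0.25 (edgeR FDR = 0.886), and SLA-3 stood at -0.38 (FDR = 0.629), TAPBP at -0.06 (FDR = 0.815), NLRC5 at -0.21 (FDR = 0.850), TAP2 at -0.26 (FDR = 0.873) and B2M at -0.07 (FDR = 0.978). SLA-3 crossed the threshold when 1 other litter was left out, namely CON replicate 4 (-0.75, edgeR FDR = 0.247), HF replicate 4 (-0.86, FDR = 0.291) or HF replicate 3 (-0.58, FDR = 0.265), and TAPBP when HF replicate 3 was left out (-0.14, FDR = 0.280).

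Because whole litters received a diet, the litter means of log2 CPM were also compared, 6 against 6, by a two-sided exact permutation test per gene. TAP2 was lower in HF litters by this test (-0.53, exact p = 0.0411), and 1 of 6 genes past an exact p of 0.05 stands beside 4.09% of all genes. Its CON litters ran from 1.69 to 5.51 CPM and its HF litters from 1.42 to 2.46 CPM, so the litters overlapped. SLA-3 differed by -0.67 (exact p = 0.212), NLRC5 by -0.38 (exact p = 0.318), B2M by -0.31 (exact p = 0.513), SLA-1 by -0.23 (exact p = 0.768) and TAPBP by -0.20 (exact p = 0.121). Without the CON replicate 2 litter, 0 of 6 passed (6.2% of all genes), TAP2 stood at -0.35 (exact p = 0.0823), and SLA-1 turned to a positive 0.25 (exact p = 0.569). SLA-3 then stood at -0.30 (exact p = 0.426), NLRC5 at -0.18 (exact p = 0.604), TAPBP at -0.13 (exact p = 0.227) and B2M at -0.04 (exact p = 0.924). Leaving out any of CON replicates 1, 3 or 6 or HF replicates 3, 4, 5 or 6 also took TAP2 past 0.05, to between 0.0606 and 0.0952. With litters permuted only within their cohort, TAP2 had an exact p of 0.025 and the other 5 genes stayed at 0.13 or above.

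Within cohorts, the diet difference of litter means (3 against 3) lay further below 0 in cohort 1 than in cohort 2 for each gene, as values only, since the smallest exact p of such a test is 0.1. SLA-3 stood at -1.27 in cohort 1 and at -0.06 in cohort 2, and SLA-1 at -0.78 and 0.31. TAP2 stood at -0.77 and -0.30, NLRC5 at -0.55 and -0.22, B2M at -0.49 and -0.13 and TAPBP at -0.23 and -0.17. The difference between cohorts itself had exact p values from 0.23 (SLA-3) to 0.81 (TAPBP) when diets were permuted within cohorts. Without the CON replicate 2 litter, the cohort 1 difference of SLA-3 was -0.71 and that of SLA-1 was 0.01. In an edgeR fit of the 12 cohort 1 libraries alone, SLA-3 was called lower on HF (-1.26, FDR = 0.000513), the 1 gene called of 15841 (0.00631%). That fit takes littermates as separate piglets and includes the CON replicate 2 litter. In cohort 2 alone, SLA-3 differed by -0.12 (edgeR FDR = 0.970) and no class I gene was called (0.00645% of all genes).

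**Figure D2:**
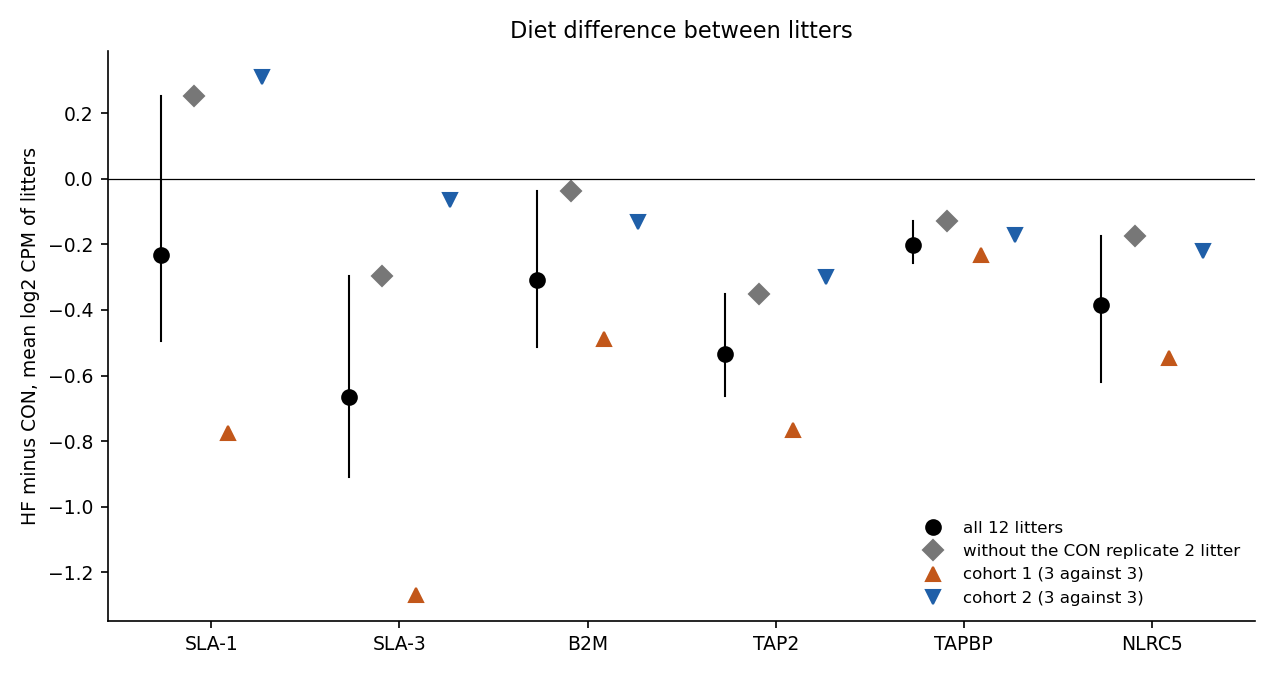
Difference of HF from CON litters in mean log2 CPM for each measured class I gene. Black points show all 12 litters with a line from the lowest to the highest value when 1 litter is left out, diamonds the value without the CON replicate 2 litter, and triangles each cohort (3 against 3 litters). The line of SLA-1 crosses 0, from -0.49 to 0.25, and the cohort 1 triangle of SLA-3 lies at -1.27.

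Between littermates, TAPBP was higher in the SGA piglet by 0.19 log2 (8 of 12 litters; two-sided exact sign-flip test, p = 0.0151), 1 of 6 genes beside 12.6% of all genes past the same exact p of 0.05. The difference was 0.12 (exact p = 0.0303) without CON replicate 6, whose SGA piglet stood at 205 and AGA piglet at 105 CPM, and 0.18 (exact p = 0.0303) without CON replicate 2. Its edgeR size effect was 0.13 ± 0.05 (SE; FDR = 0.610). The other 5 genes differed between littermates by 0.01 to 0.18, with exact p values from 0.358 (NLRC5, higher in 8 of 12 litters) to 0.960 (SLA-1, higher in 7 of 12). Within either cohort alone (6 pairs, smallest exact p 0.0312) no gene passed. With CON replicate 4 left out, NLRC5 also passed (0.26, exact p = 0.0156).

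The 2 piglets of the CON replicate 2 litter carried the highest class I levels of the series. SLA-1 reached 729 CPM in the AGA and 1075 CPM in the SGA littermate, whereas the other 22 libraries ran from 58.6 to 457 with a median of 123 CPM. The mean of this litter was 7.41 times the median of the other 11 litters. SLA-3 reached 279 and 418 CPM, against 28.6 to 144 in the others, and the litter mean stood at 6.66 times the median of the other litters. B2M stood at 4.81 and 5.25 CPM against 0.351 to 2.90 (3.44 times), TAP2 at 5.11 and 5.90 CPM against 0.823 to 4.10 (2.51 times) and NLRC5 at 8.27 and 10.0 CPM against 1.06 to 6.57 (2.35 times). TAPBP, at 143 and 176 CPM, was exceeded by SGA CON 6 and stood at 1.48 times the median of the other litters.

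For 5 of the 6 genes, both littermates thus lay above all other 22 libraries, which held for 1.59% of all tested genes. This litter was singled out with its levels known, so these values describe it and test nothing. The next highest litter was HF replicate 2 for SLA-1 (mean of 350 CPM) and SLA-3 (125 CPM). For the other genes it was CON replicate 1 (B2M, 2.68 CPM), CON replicate 6 (TAP2, 3.23 CPM, and TAPBP, 155 CPM) and CON replicate 3 (NLRC5, 5.93 CPM). CON replicate 2 and HF replicate 2 were the 2 female litters of cohort 1. In cohort 2 the 4 female litters had SLA-1 means of 82.7 to 147 CPM and the 2 male litters 66.9 and 150 CPM. The part of sex in these levels was not tested.

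Genes around the pathway shared the high values of this litter to unequal degrees. The counts below stand beside 1.59% of all tested genes above all other 22 libraries in both littermates. Of 33 measured interferon-stimulated genes, 23 lay above all other 22 libraries in both littermates, and their summed level was 871 CPM in the AGA and 672 CPM in the SGA piglet against 170 to 446 CPM elsewhere. Of 22 genes of class I transactivation and interferon signalling, 4 did so, among them the transcription factors IRF9, IRF3 and IRF2. IRF9, which carries the interferon signal into the nucleus, stood at 167 and 166 CPM against at most 113. In the proteasome list 1 of 12 did, the interferon-induced activator subunit PSME2 (60.4 and 60.5 CPM against at most 44.5), and in the peptide loading list 1 of 15 did, the tapasin-related TAPBPL (51.0 and 48.2 CPM against at most 43.1). Of 8 other class I and class I-like genes, SLA-7 and SLA-8 did, with SLA-8 at 35.0 and 43.6 CPM against at most 24.3.

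Markers of other cell types in this litter were counted as well, again beside 1.59% of all tested genes above all other 22 libraries in both littermates. Of 6 measured genes for class I receptors and their T and NK cells, 3 lay above all other libraries in both littermates: CD8A, the T cell co-receptor for class I (1.65 and 2.30 CPM against at most 1.42), CD3E (4.81 and 3.12 CPM against at most 2.54) and CD5 (2.26 and 2.79 CPM against at most 2.07). The summed level of that list, which CD247 dominates, was 88.1 and 128 CPM against 83.2 to 145 elsewhere, and KLRD1, GZMA and GZMH were at 0 in all 24 libraries. Of 16 microglia markers 0 did, and their sum was 579 CPM in the AGA and 328 CPM in the SGA littermate against 226 to 497 CPM. For endothelial markers 2 of 14 did, with sums of 725 and 643 CPM against 474 to 647 CPM. Blood cell markers (4 measured) summed to 300.3 and 313 CPM against 96.5 to 402 CPM, and choroid plexus markers (5 measured) to 99.8 and 73.5 CPM against 37.4 to 179 CPM, with 0 of either list above all others. The neuron marker sum of AGA CON 2, 6388 CPM, lay below every other library (7044 to 10669 CPM). MHC class II genes, known from microglia and other antigen-presenting cells, had 2 of 7 above all others and sums of 134 and 168 CPM against 21.1 to 230 CPM, the highest in SGA CON 3. The part of these cell types in the class I levels was not tested.

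**Figure D3:**
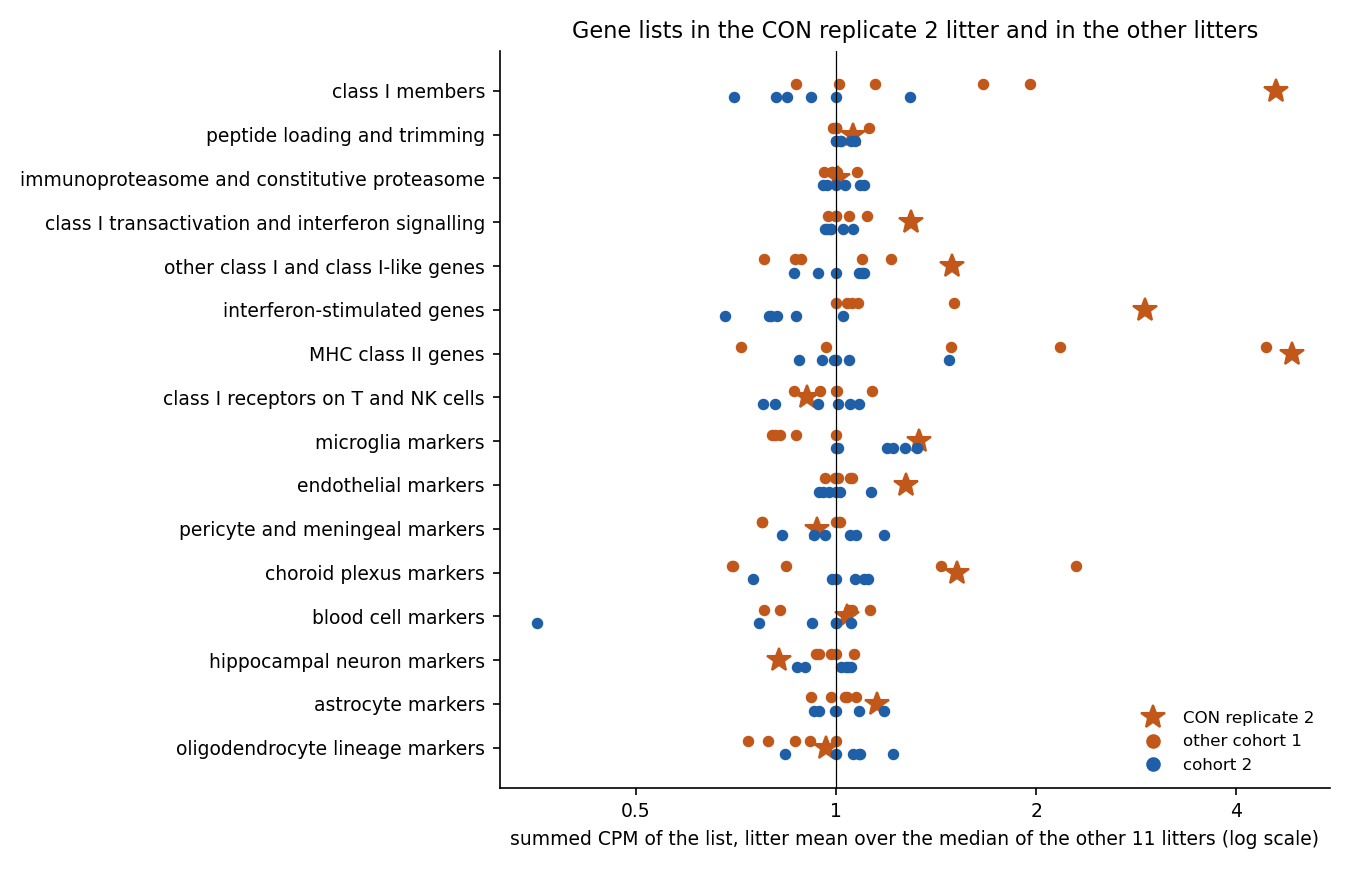
Summed CPM of each gene list in each litter, as a ratio to the median of the other 11 litters (log axis), with a star for CON replicate 2 and the cohorts in 2 colors. The star lies at 4.60 for the class I members, 4.85 for MHC class II, 2.92 for interferon-stimulated genes and 0.820 for hippocampal neuron markers.

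Class I levels also differed between the 2 cohorts. In cohort 1 SLA-1 averaged 322 ± 303 CPM (SD, n = 12 piglets of 6 litters) and in cohort 2 it averaged 109 ± 37.0 CPM. SLA-3 averaged 131 ± 111 against 58.8 ± 19.5 CPM, B2M 2.64 ± 1.19 against 1.09 ± 0.517 CPM and NLRC5 5.27 ± 2.02 against 2.94 ± 1.19 CPM. By edgeR with groups, sex and cohort in the model, 5 of the 6 measured class I genes were lower in cohort 2, beside 12.8% of all genes called in either direction. This model takes littermates as separate piglets, although cohort differed only between litters, so litter means are compared below as well. Cohort was also adjusted on its own. Its largest unadjusted p called at an FDR under 0.4 was 0.0510, against 0.000694 for diet by edgeR. The edgeR counts for cohort and for diet thus rest on unlike thresholds. SLA-1 was 2.83-fold lower (log2 SE 0.33; edgeR FDR = 0.0183). On the log2 scale, SLA-3 fell by 1.20 ± 0.21 (SE; FDR = 0.00290), B2M fell by 1.36 ± 0.25 (FDR = 0.00540), NLRC5 by 0.82 ± 0.21 (FDR = 0.0442) and TAP2 by 0.59 ± 0.24 (FDR = 0.276). TAPBP, at -0.14 ± 0.08 (edgeR FDR = 0.514), was not called. The median of the 6 was -1.01, beside -0.01 over all genes.

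Without the CON replicate 2 litter, 4 of 6 genes were still called lower in cohort 2 (10.2% of all genes). SLA-1 then fell by 1.00, SLA-3 by 0.89, B2M by 1.05 and NLRC5 by 0.50, while TAP2 stood at -0.40 (edgeR FDR = 0.642) and TAPBP at -0.08. TAP2 was also lost without CON replicate 4 (-0.48, FDR = 0.416). TAPBP was called lower when CON replicate 1 (-0.17, FDR = 0.388), CON replicate 6 (-0.19, FDR = 0.226) or HF replicate 4 (-0.25, FDR = 0.178) was left out. Reads counted for SLA-1 and SLA-3, summed, fell by 1.39 (edgeR FDR = 0.00789), and with LOC100513601 added they fell by 1.38 (FDR = 0.0188). Reads with several alignments are in neither sum, and their part was not tested.

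Over litter means, with no adjustment for sex, 3 of 6 genes passed an exact p of 0.05, beside 12.5% of all genes. For B2M all 6 cohort 2 litters (0.422 to 1.46 CPM) lay below all 6 cohort 1 litters (1.73 to 5.03 CPM), with a difference of -1.12 and the smallest two-sided exact p that 6 against 6 litters can give, 0.00216. NLRC5 differed by -0.82 (exact p = 0.0152), with cohort 2 litters at 1.92 to 4.43 CPM and cohort 1 litters at 3.88 to 9.14 CPM. SLA-1 differed by -1.13 (exact p = 0.0455), a call lost without any of CON replicates 1, 2, 4, 5 or 6 or HF replicates 2, 4, 5 or 6 (exact p from 0.0563 to 0.0996). SLA-3 (-0.86, exact p = 0.0844) passed when HF replicate 1 (exact p = 0.0238) or HF replicate 3 (exact p = 0.0411) was left out, whereas TAP2 (-0.40, exact p = 0.162) and TAPBP (-0.06, exact p = 0.619) did not pass in any.

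Without the CON replicate 2 litter, 2 of 6 genes passed (12.3% of all genes), namely B2M (-0.93) and NLRC5 (-0.65), and SLA-1 stood at -0.73 (exact p = 0.0974), SLA-3 at -0.51, TAP2 at -0.21 and TAPBP at 0.03. Without both female litters of cohort 1, B2M (-0.88, exact p = 0.0143) and NLRC5 (-0.70, exact p = 0.0476) still passed and SLA-1 stood at -0.49 (exact p = 0.205). With litters permuted only within a diet, B2M had an exact p of 0.005, NLRC5 of 0.015 and SLA-1 of 0.055. B2M and NLRC5 counts are low, and the values at their lowest rest on 3 and 7 reads. Cohort 1 held 2 female and 4 male litters and cohort 2 held 4 female and 2 male litters. What else differed between the cohorts cannot be told apart from cohort.

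**Figure D4:**
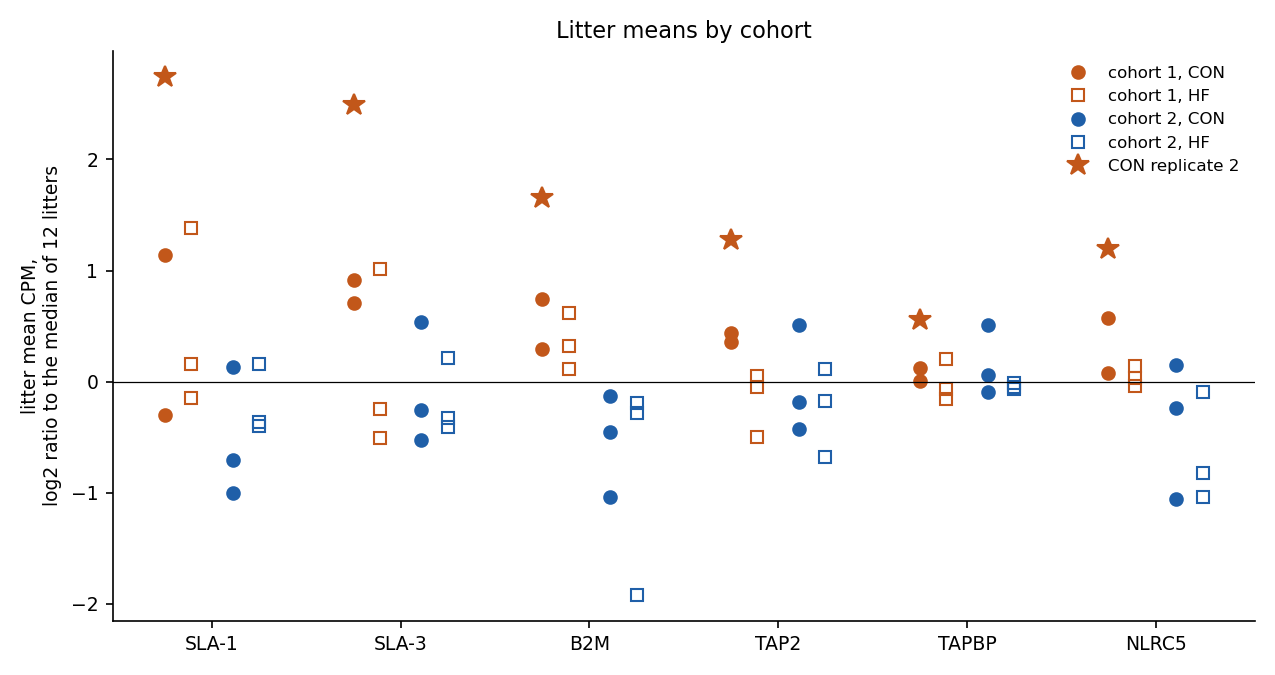
Litter mean of each measured class I gene as a log2 ratio to the median of the 12 litters, by cohort (color), diet (filled for CON, open for HF) and with a star for CON replicate 2. Every cohort 2 litter of B2M lies below every cohort 1 litter, whereas the cohorts overlap for the other 5 genes.

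The remaining genes of the pathway were less uniform between cohorts, beside 12.8% of all genes called in either direction. Of 15 measured peptide loading and trimming genes, 3 were called by edgeR: the trimming aminopeptidases LNPEP (-1.08, FDR = 0.222) and ERAP1 (-0.63, FDR = 0.367) were lower in cohort 2, and the cytosolic peptidase THOP1 was higher (0.18, FDR = 0.206). The counts of LNPEP and ERAP1 were low. Outside the CON replicate 2 litter LNPEP had a median of 0.470 CPM, at the floor of 3 reads (0.323 to 0.499 CPM), and ERAP1 of 1.15 CPM. The median of that list was -0.01. Its members CALR, the chaperone calreticulin (diet -0.18, edgeR FDR = 0.585), and BCAP31, an export receptor (0.09, FDR = 0.747), had the smallest diet p values and were not called. Of 12 proteasome genes, the activator subunits PSME1 (-0.38, FDR = 0.0166) and PSME2 (-0.46, FDR = 0.0268) were lower in cohort 2 and none higher. The immunoproteasome subunit PSMB10 (-0.28, edgeR FDR = 0.440) was not called, nor were the standard subunits PSMB5, PSMB6 and PSMB7 that immune subunits replace (0.00 to 0.09). These cohort calls take littermates as separate piglets. By litter means (exact p under 0.05, 12.5% of all genes), 1 loading and trimming gene was lower and 1 higher. Of the proteasome genes 2 were lower and 0 higher.

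Among 22 transactivation and signalling genes, 7 were lower and 2 higher in cohort 2, beside 12.8% of all genes called in either direction. IRF9 fell by 0.60 (edgeR FDR = 0.0300), IRF1 by 0.59 (FDR = 0.124) and IRF7 by 0.43 (FDR = 0.0395), and RFX5, a class I and II promoter factor, by 0.16 (FDR = 0.146). The list's median was -0.05. IFNGR1, a receptor chain for interferon gamma and one of the genes with the smallest diet p values, differed between diets by -0.10 (edgeR FDR = 0.818). Of 8 other class I genes, SLA-6, SLA-7 and SLA-8 were lower, the last by 0.72 (edgeR FDR = 0.0643), and only 1 of the 8 without the CON replicate 2 litter (10.2% of all genes). These cohort calls take littermates as separate piglets. By litter means, 0 of the 8 passed an exact p of 0.05 (SLA-6 at 0.0671, SLA-7 at 0.165 and SLA-8 at 0.286). Of the 22 transactivation and signalling genes, 4 passed as lower and 1 as higher, beside 12.5% of all genes. SLA-5 differed between diets by -1.21 ± 0.44 (edgeR FDR = 0.608) and the class I-like AZGP1 by 0.49 (FDR = 0.714).

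Of 33 interferon-stimulated genes, 31 were lower in cohort 2 and 0 higher (edgeR, median -1.01), beside 12.8% of all genes called in either direction. Without the CON replicate 2 litter, 19 of 31 tested were lower (10.2% of all genes). The T cell attractants CXCL9 and CXCL10 lay at the low end of that list, CXCL10 at -2.35 (FDR = 0.00344). Of 7 MHC class II genes 6 were lower (median -1.20), and 3 of 6 without that litter. Of 6 T and NK cell genes 4 were lower (median -1.04): CD3E, CD2, CD5 and CD8A. These edgeR counts take littermates as separate piglets. Over litter means, fewer genes passed an exact p of 0.05, beside 12.5% of all genes. Lower in cohort 2 were 11 of 33 interferon-stimulated genes, 3 of 7 class II genes and 1 of 6 T and NK cell genes. Without the CON replicate 2 litter these counts were 9, 1 and 1 (12.3% of all genes), and 1 class II gene was higher. The direction of these lists was that of the class I genes, in values that share the same 24 libraries.

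Markers of resident cells were mixed in direction, beside 12.8% of all genes called in either direction. Of 16 microglia markers 5 were higher in cohort 2 and 0 lower (median 0.26), and 9 were higher without the CON replicate 2 litter. Of 11 oligodendrocyte lineage markers 7 were higher (median 0.39). For endothelial markers 2 of 14 were lower and 0 higher (median -0.18), for astrocyte markers 2 of 8 (median -0.17), for neuron markers 1 of 11, for choroid plexus markers 1 of 5 and for blood cell markers 0 of 4. Pericyte and meningeal markers had 2 lower and 1 higher of 10. Without the CON replicate 2 litter (10.2% of all genes) 0 of the endothelial and 0 of the astrocyte markers were lower, and 1 endothelial marker was higher. All these edgeR counts take littermates as separate piglets. By litter means (exact p under 0.05, 12.5% of all genes), 7 microglia and 6 oligodendrocyte markers were higher. Lower were 2 astrocyte markers and 1 endothelial marker. Without that litter (12.3% of all genes) the counts were 11, 5, 2 and 0. The part of any of these cell types in the cohort difference of the class I genes was not tested.

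**Figure D5:**
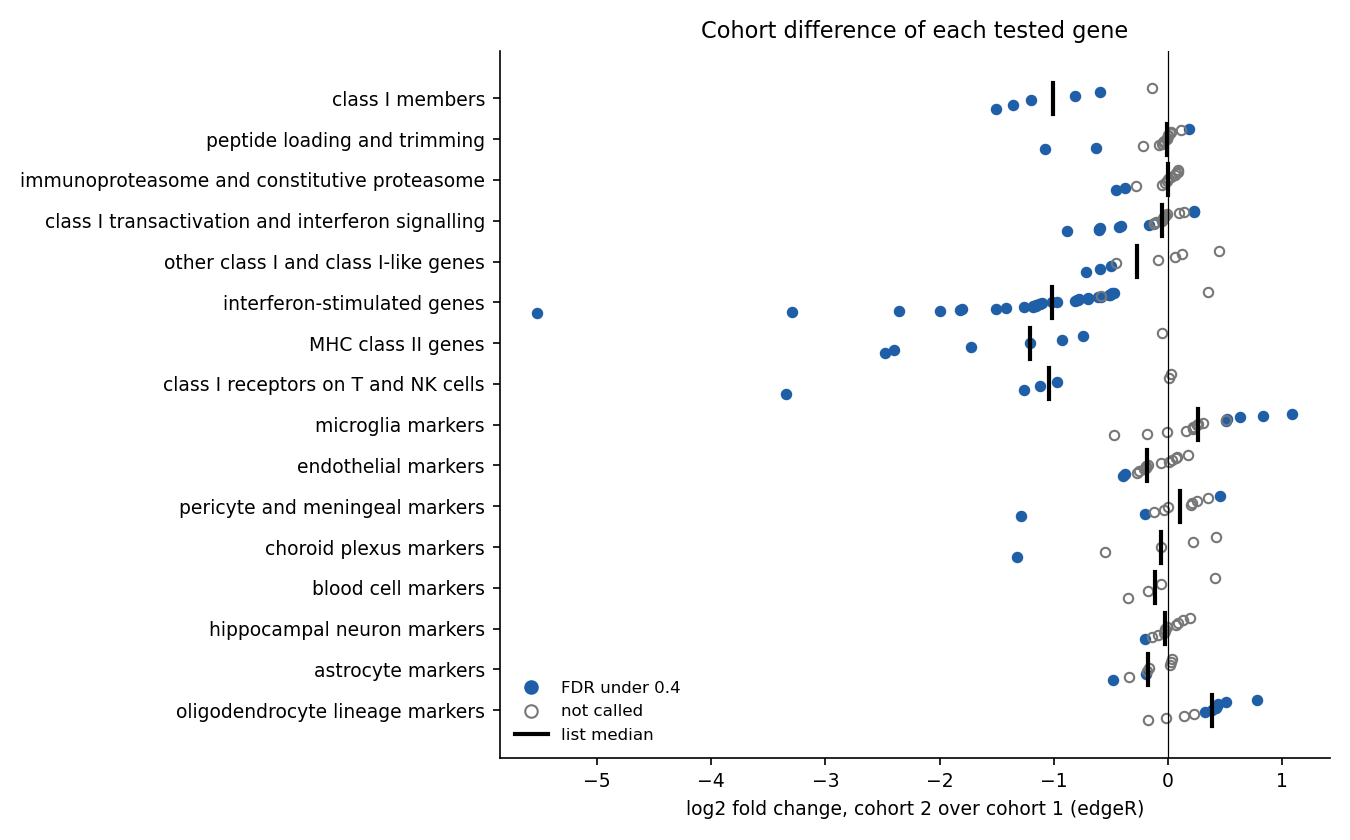
Log2 fold change of cohort 2 over cohort 1 (edgeR) for every tested gene of each list, filled where called at an FDR under 0.4, with a bar at the list's median. The class I members (median -1.01) and interferon-stimulated genes (-1.01) lie mostly left of 0, and oligodendrocyte (0.39) and microglia markers (0.26) mostly right.

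Diet and size left these lists largely uncalled by edgeR. By edgeR, 0 genes of any of them were called for either, other than CAMK2A among the neuron markers (size 0.13, FDR = 0.308), beside 16 of 182 list genes (8.79%) at an unadjusted p under 0.05 for size and 21 of 182 (11.5%) for diet, against 10.6% and 7.10% of all genes. Counts by DESeq2 were not made for these lists. Between littermates, by the exact sign-flip test, 5 of 11 oligodendrocyte lineage markers were lower in the SGA piglet and 0 higher (median -0.25). An exact p under 0.05 was met by 12.6% of all genes, and no other list had more than 2 genes past it in either direction. The oligodendrocyte list was singled out here with its values known. The smallest diet FDR among the immune lists was that of the class II genes SLA-DRB1 (-0.95, edgeR FDR = 0.402) and SLA-DQB1 (-0.89, FDR = 0.428). Among interferon-stimulated genes it was IFIH1, a sensor of viral RNA (0.90, FDR = 0.516), and UBA7, the ISG15-activating enzyme (-0.32, FDR = 0.567). Over litter means, 4 of 33 interferon-stimulated genes had a higher mean on HF (median difference -0.19), and 22 of 33 without the CON replicate 2 litter (median 0.10). The smallest diet FDRs of the T and NK cell genes were those of CD5 (-0.80, FDR = 0.714) and CD2 (-0.30, FDR = 0.905).

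The measured class I genes varied together across the 24 libraries, a description in which the libraries share litters and cohorts. Pearson's r of log2 CPM between pairs ran from 0.41 (TAPBP and NLRC5) to 0.83 (SLA-1 and SLA-3), and without the CON replicate 2 litter, over 22 libraries, from 0.14 (TAPBP and NLRC5) to 0.68 (B2M and NLRC5). Among the 5 genes outside the members whose pattern was most like the mean of the 6 were PML (r = 0.88), IRF9 (0.86), SLA-DMA (0.85) and CXCL10 (0.85). Over the 22 other libraries these stood at 0.74, 0.66, 0.74 and 0.76. NLRC5 alone ran closest to FLT1 and PODXL, both known from blood vessel cells, and to UBA7 (r = 0.79, 0.78 and 0.77, and 0.67, 0.68 and 0.69 without that litter).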

How the data were processed

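Per the labels and the study's methods, polyA RNA of 24 hippocampi was made into stranded libraries, pooled and sequenced single-end in 1 lane. The authors trimmed reads with Trimmomatic 0.33, aligned them to Sscrofa10.2 with STAR 2.5.2a and counted reads on exons per Entrez gene with featureCounts of Subread 1.5.0, by strand and leaving out reads with several alignments. The deposited counts are whole reads per gene, not normalized. The 24 tables list the same 38882 genes. An entry with no gene name, 0.613 to 1.62% of reads, was left out, and no libraries were identical.

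Members and gene lists were chosen with earlier results of these data known. Symbols came from a gene name table that matched 23036 of the identifiers. CPM used TMM factors (edgeR 4.0.16 in R 4.3.3), and RPKM the summed exon length. Genes reaching 1 CPM in 3 or more libraries entered edgeR's quasi-likelihood test with 4 groups, sex and 5 surrogate variables (sva 3.50.0), the study's model. The 7 contrasts were adjusted together (Benjamini-Hochberg, FDR under 0.4), and cohort alone, with sex and no surrogate variables. Litter means of log2 CPM (prior count 2) were compared by exact permutation over all genes. The tests were first tested on simulated data. Alternatives used DESeq2 1.42.0, limma 3.58.1 (voom), other filters and models, litter as a replicate block and fits without a litter.

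Pair labels name littermates. Deviations of littermates from their group means correlated at 0.0144 to 0.329 (mean 0.154, 12 pairs), and those of non-littermates sharing diet and cohort at a mean of 0.0314. From each list the text names genes called in any of the 7 contrasts, otherwise the 2 with the smallest diet p. Genes named for cohort or for the CON replicate 2 litter were chosen after their values were seen. Genes of similar pattern are the 5 nearest to the members' mean and the 3 nearest to NLRC5. Each piglet is 1 library, so p-values measure spread between piglets or litters of this farm. Floors cover counting error only. The values of 1 gene that these rules name are not reported here.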

Additional observations from a re-analysis of the deposited data

Results flagged for a closer look

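Among 24 combinations of a measured class I gene and a group of 6 piglets, 8 held 1 library whose gap to its nearest neighbour exceeded Dixon's limit for 6 values, as a share of the group's range. For independent, normally distributed values that limit flags about 1 in 20 groups. These combinations share libraries, litters and genes that varied together, and CPM were not logged, so the count of 8 cannot be set against that rate. All 8 were replicate 2 libraries, from AGA CON 2, SGA CON 2 and AGA HF 2. SLA-1 stood at 729 CPM in AGA CON 2 (others 64.9 to 229), at 1075 CPM in SGA CON 2 (others 69.0 to 364) and at 457 CPM in AGA HF 2 (others 90.8 to 185). SLA-3 stood at 279 CPM in AGA CON 2 (others 28.6 to 93.6), at 418 CPM in SGA CON 2 (others 41.2 to 143) and at 144 CPM in AGA HF 2 (others 38.5 to 71.9). TAPBP stood at 143 CPM in AGA CON 2 (others 103 to 110) and at 130 CPM in AGA HF 2 (others 91.5 to 105). The counts behind them, 816 to 6557 reads, are far above the floor of 3 reads.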

How the results depend on the processing

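No class I gene was called for size, diet or their interaction under TMM or DESeq2 size factors, DESeq2's Wald test, limma voom, other filters on low counts, sex alone or sex and cohort in place of surrogate variables, or an FDR under 0.05. Exceptions were 1 gene for size when each contrast was adjusted on its own (TAPBP), and 1 gene for diet and 1 for diet in SGA in cohort 1 alone (SLA-3). Leaving out 1 litter gave 0 to 2 genes for diet, 0 to 1 for diet in SGA, 4 to 6 for cohort (edgeR), and by the exact tests 0 to 2 for diet, 1 to 2 for size and 2 to 4 for cohort. The exact diet count was 0 without the CON replicate 2 litter, and the exact size count was 0 in cohort 1 and 0 in cohort 2 alone. With litter as a replicate block, 5 genes stayed called for cohort, and the block changed no other call. Alternatives that permuted litters within cohorts or diets, summed heavy chains with LOC100513601 or left out a pair of litters were chosen after seeing the data.

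Differences near 0 turned sign, none of them called. SLA-1's size effect became -0.123 (limma voom), -0.0196 (without CON replicate 2) and -0.127 (cohort 1). B2M's became 0.0885 (sex alone), 0.0995 (sex and cohort), 0.103 (litter block), 0.0738 (cohort 1) and 0.0845 (cohort 2), and NLRC5's -0.0204 without CON replicate 2. SLA-1's diet effect became 0.00681 (no filter), 0.247 (without CON replicate 2) and 0.271 (cohort 2), and by litter means 0.251 without CON replicate 2. SLA-1's littermate difference became -0.0386 without CON replicate 2 and -0.108 in cohort 1. TAPBP's cohort difference of litter means became 0.0251 without CON replicate 2 and 0.0713 without HF replicate 2 too. Leaving out 1 litter, size effects ran from -0.260 to 0.202 (SLA-1), -0.0364 to 0.203 (SLA-3), -0.351 to 0.112 (B2M), -0.114 to 0.355 (TAP2) and -0.0204 to 0.143 (NLRC5), where without HF replicate 6 it was -0.00234. Diet effects ran from -0.535 to 0.392 (SLA-1) and -0.404 to 0.030 (B2M), and SLA-1's littermate difference from -0.0907 to 0.163. The cause was not tested. At 3 to 32 reads, small changes of B2M cannot be shown, and TAP1, PSMB8, PSMB9 and SLA-2 could not be compared.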

Other observations

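Some features of the class I genes belong to none of the comparisons. SLA-5, a heavy chain gene outside the 10 symbols, had the widest range of the 8 measured genes in the list of other class I and class I-like genes. It ran from 2.45 to 45.9 CPM over the 22 libraries outside CON replicate 2, where it stood at 26.9 and 22.96 CPM. Its diet difference of litter means, -1.11 (exact p = 0.0714), exceeded that of each measured class I gene. LOC100513601, the heavy chain neighbour, stood at 585 and 895 CPM in the CON replicate 2 litter against 22.1 to 328 CPM elsewhere, and its cohort difference was -1.44 ± 0.43 (SE; edgeR FDR = 0.103). That fit includes this litter and takes littermates as separate piglets, and by litter means the exact p was 0.0693. The MHC class II gene SLA-DRA ran from 1.19 to 82.8 CPM outside CON replicate 2 and, by the same edgeR fit, fell by 2.40 in cohort 2 (FDR = 0.00182).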
